A study of Homo sapiens with 12 samples.

Results

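Early transcript changes in HepG2 cells after insulin were read from a comparison of 30 min with 0 min of insulin stimulation. HepG2 cells were grown out of a human hepatic tumour. The comparison used 4 RNA-seq libraries, 2 at 30 min and 2 at 0 min, chosen by the times in the library titles out of the 12 libraries of the series. Of these, 10 are RNA-seq at 0, 5, 10, 30 and 240 min and the other two are an insulin receptor ChIP and its input. All were cells of this 1 line, with no genotype and no agent beside insulin named, and the treatment text common to the RNA-seq libraries gives 16 h in serum-free medium followed by 3 nM insulin for 5 min, also for those titled 0 min. The dose and the serum-free time are therefore stated here as that text gives them and the time as the titles give it. The methods of the study describe the RNA-seq as 1 experiment on biologically independent samples, and the labels do not say what separates the 2 libraries of a time. A p-value therefore measures the spread between these libraries within that experiment. No library without insulin is titled with a later time, so effects of insulin and of elapsed time or handling cannot be told apart.

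Insulin binds its receptor at the cell surface, and the receptor then activates AKT and ERK, a kinase of the mitogen pathway. ERK drives immediate early genes, whose transcription needs no new protein, and afterwards the phosphatases and Sprouty proteins that shut ERK down again. AKT removes the FOXO transcription factors from the nucleus, and in hepatocytes FOXO factors keep genes of fasting such as IGFBP1, PCK1 and G6PC active. Fat synthesis genes under SREBP-1c belong to the slower part of the hepatic insulin program.

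The 2 libraries at 0 min held 21692103 and 45005769 reads counted on genes and the 2 at 30 min 28087570 and 20437471, and the other RNA-seq libraries 18347109 to 26276180. Spike-in transcripts took 1.586% and 1.595% of the counts at 0 min and 1.66% and 1.85% at 30 min and were left out. At each of the 5 times the counts of the 2 libraries differed beyond sampling noise (chi-square per degree of freedom 2.86 to 6.47), so they were kept apart. The markers bore out the liver label, since the 14 hepatocyte markers, albumin and alpha-fetoprotein among them, were all expressed and together took 83948 and 85229 CPM, counts scaled to library size by TMM, at 0 min and 85115 and 73679 CPM at 30 min. Of 12 markers of leukocytes, endothelium and fibroblasts, 8 passed the filter on low counts and none was called, with summed levels of 6548 and 5994 CPM at 0 min and 5350 and 5317 CPM at 30 min, almost all of them from LYZ. LYZ, lysozyme, was at 6433 and 5878 CPM and then at 5233 and 5196 CPM and missed the threshold (log2 fold change -0.24, adjusted p = 0.0828, edgeR), though DESeq2 called it (adjusted p = 0.000522). The part of this lower level and of the lower hepatocyte total in 30 min replicate 2 in the results that follow was not tested. PTPRC, the defining leukocyte marker, had 0 counts in all 10 libraries, and COL1A2, a collagen of fibroblasts, had 0 counts in these 4. Every other member of the list had counts in these 4. ACTA2 had 1107 and 2532 counts at 0 min and 1594 and 1349 at 30 min. CD68 had 977 and 1782 and then 1132 and 817, and COL1A1 22 and 57 and then 39 and 40.

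The change at 30 min was small and fell on few genes. Of 13852 genes tested, 46 passed an adjusted p of 0.05 in edgeR's quasi-likelihood test (0.332%), 26 of them higher (0.188%) and 20 lower (0.144%). Only FOS, 1 of the 46, moved by at least 1 on the log2 scale, and 15 moved by at least 0.5. The median log2 fold change of all genes tested was -0.0050, and 1125 genes had an unadjusted p under 0.05 where 692.6 would be expected by chance. The number called depended on the processing and ran from 4 with spike-in scaling to 160 with no filter on low counts, while all 46 kept their direction. In a lysate of many cells, fewer cells with a transcript and less of it per cell cannot be told apart. In each of the 46 both libraries at 30 min lay on one side of both libraries at 0 min, as they did in 38.3% of all genes tested. In the TPM values that the authors deposited, which are scaled for transcript length, the same held for all 46 and for 37.0% of the genes tested. The 46 were chosen on these same libraries, so this separation and the kept direction were favoured by the choice. Among the genes that rose were transcription factors and inhibitors of signalling. Among those that fell were brakes on ERK and 2 of the 23 FOXO targets tested. These are described gene by gene below the plot of their changes.

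**Figure D1:**
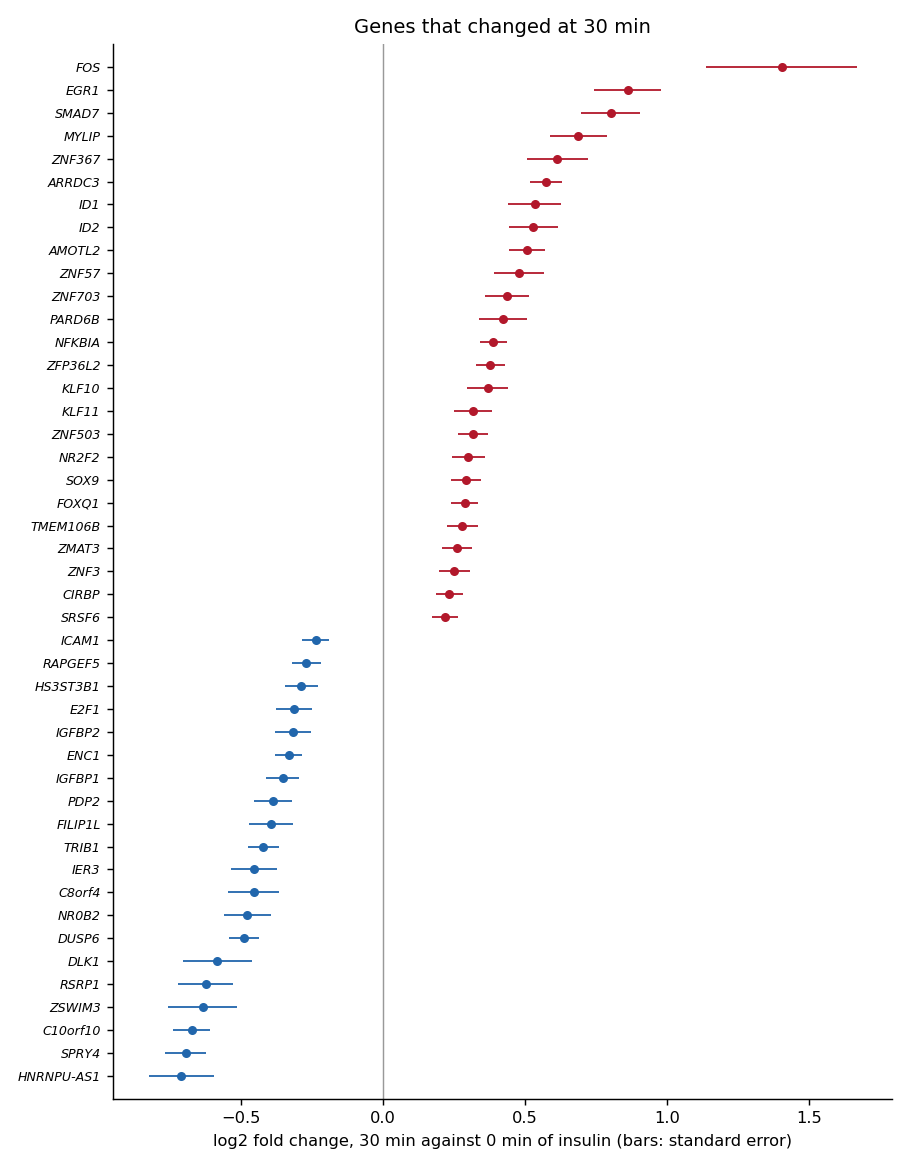
Each point is the log2 fold change of 1 gene at 30 min against 0 min of insulin and each bar its standard error (SE), for 25 of the genes that rose (red) and the 20 that fell (blue). FOS stands apart at 1.404 with the widest bar, and the other changes lie between -0.71 and 0.86.

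FOS and EGR1, the immediate early transcription factors that growth factors typically induce, had the 2 largest rises. FOS (chromosome 14, 75745481 to 75748937 in hg19, plus strand) was measured at 2.55 and 1.15 CPM at 0 min and at 4.45 and 4.32 CPM at 30 min. The 30 min libraries were close to each other and above both 0 min libraries, of which replicate 1 was well above replicate 2. The log2 fold change was 1.404 (SE, the standard error, 0.27, adjusted p = 0.0218, edgeR), a 2.65-fold rise, and its size rested on the 0 min libraries, being 1.94 without 0 min replicate 1 and 0.78 without 0 min replicate 2. FOS lost its call without 0 min replicate 2 (adjusted p = 0.338), without 30 min replicate 1 (1.38, adjusted p = 0.101) and without 30 min replicate 2 (1.42, adjusted p = 0.122).

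EGR1 (chromosome 5, 137801181 to 137805004, plus strand) stood at 25.8 and 20.5 CPM at 0 min and at 47.5 and 34.3 CPM at 30 min. Its lowest values were not at 0 min but at 10 min, 14.5 and 15.4 CPM, so the rise took place between 10 and 30 min. The log2 fold change against 0 min was 0.86 (SE 0.12, adjusted p = 0.000855, edgeR), and it stayed called when any of the 4 libraries was left out, at 0.60 to 1.07. KLF10, a TGF-beta-inducible zinc finger factor, was the other member of the immediate early list that was called, with 36.1 and 41.0 CPM against 48.2 and 52.5 CPM (log2 fold change 0.37, SE 0.07, adjusted p = 0.0284, edgeR). KLF10 was not called without 0 min replicate 1 (0.29, adjusted p = 0.49) or without 30 min replicate 2 (0.31, adjusted p = 0.418).

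The immediate early list of 30 genes did not rise as a whole. Of its 27 members tested 3 were higher and 0 lower, and its median log2 fold change was 0.06 against -0.0050 over all genes. JUN, at 46.4 and 48.0 CPM and then 48.9 and 52.7 CPM, and MYC, at 156 and 151 CPM and then 166 and 155 CPM, did not pass the test (adjusted p = 0.726 and 0.774, edgeR). FOSB and EGR3, the relatives of FOS and EGR1 with the largest log2 fold changes among the members not called, had values of 1.26 and -1.74 at low levels (adjusted p = 0.32 and 0.42, edgeR). EGR3 was at 1.16 and 0.449 CPM at 0 min and at 0.251 and 0.146 CPM at 30 min, lower in value where EGR1 was higher.

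The promoters of the genes with the largest changes are shown because the induction of immediate early genes is classically read at the CArG box, the site of serum response factor. The RefSeq promoters of GRCh38.p14 cover 32 of the 46 genes, 20 that rose and 12 that fell. Each line gives the 250 bases before the start of the gene, 5′ to 3′ on the strand of the gene, plus for FOS, EGR1 and MYLIP and minus for SMAD7, SPRY4 and C10orf10. Capitals mark the CArG boxes of EGR1 and the forkhead motif GTAAACA of C10orf10, found on either strand.
FOS: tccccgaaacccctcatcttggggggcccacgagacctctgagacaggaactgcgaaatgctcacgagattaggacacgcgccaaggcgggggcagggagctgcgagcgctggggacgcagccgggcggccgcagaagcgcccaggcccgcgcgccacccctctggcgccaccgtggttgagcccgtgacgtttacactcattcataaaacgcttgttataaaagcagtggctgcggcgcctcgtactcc
EGR1: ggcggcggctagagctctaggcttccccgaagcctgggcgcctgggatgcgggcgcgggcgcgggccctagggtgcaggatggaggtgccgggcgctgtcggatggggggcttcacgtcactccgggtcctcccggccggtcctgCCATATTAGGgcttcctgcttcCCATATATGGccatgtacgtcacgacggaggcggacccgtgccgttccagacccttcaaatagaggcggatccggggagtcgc
SMAD7: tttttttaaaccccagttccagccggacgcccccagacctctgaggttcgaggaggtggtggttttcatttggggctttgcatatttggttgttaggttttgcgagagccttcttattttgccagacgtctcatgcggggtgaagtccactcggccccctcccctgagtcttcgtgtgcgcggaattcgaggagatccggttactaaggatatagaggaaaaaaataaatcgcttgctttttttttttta
MYLIP: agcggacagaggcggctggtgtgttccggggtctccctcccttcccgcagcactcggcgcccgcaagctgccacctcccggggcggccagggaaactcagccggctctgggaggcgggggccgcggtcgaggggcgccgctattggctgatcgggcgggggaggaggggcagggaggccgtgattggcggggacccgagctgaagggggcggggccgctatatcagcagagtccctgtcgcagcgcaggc
SPRY4: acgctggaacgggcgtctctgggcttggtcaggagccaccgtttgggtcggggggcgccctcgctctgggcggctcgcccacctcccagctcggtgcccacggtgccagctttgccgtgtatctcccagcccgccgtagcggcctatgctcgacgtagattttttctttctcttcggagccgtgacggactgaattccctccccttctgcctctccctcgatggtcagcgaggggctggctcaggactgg
C10orf10: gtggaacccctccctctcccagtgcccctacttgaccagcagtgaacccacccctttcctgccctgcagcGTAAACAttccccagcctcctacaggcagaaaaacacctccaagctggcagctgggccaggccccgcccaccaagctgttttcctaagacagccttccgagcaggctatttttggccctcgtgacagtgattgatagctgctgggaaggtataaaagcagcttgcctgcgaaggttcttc
EGR1 held the CArG boxes CCATATTAGG and CCATATATGG, whose first bases lie 105 and 83 bases before its start. A CArG box was present in 1 of the 20 promoters of genes that rose and in 2 of the 12 of genes that fell, IGFBP2 and FILIP1L, against 1.14% of 27305 promoters in the table and 0.956% of the 10151 that belong to genes tested. The forkhead motif was present in 1 of the 12, C10orf10, and in 0 of the 20, against 2.98% of all promoters and 1.97% of those of genes tested. The AP-1 motif TGANTCA was in ZNF3 alone (6.60% of all promoters, 3.93% of those of genes tested), the ETS motif CCGGAAG in ZNF3 and ZSWIM3 (8.82% and 15.6%), and the CRE TGACGTCA (1.77% and 2.81%) and the SMAD palindrome GTCTAGAC (0.176% and 0.148%) in none of the 32, all searched on both strands. These are matches of letters in 1 window and no measurement of binding. Sites more than 250 bases before a start were not searched. A promoter without a mark, that of FOS included, may therefore hold a CArG box farther out.

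Genes of the BMP and TGF-beta pathway, in which receptors at the membrane activate SMAD factors, contributed 3 rises and no fall among 14 members tested. SMAD7, the inhibitory SMAD that takes the receptors out of action (chromosome 18, 46446223 to 46477081, minus strand), went from 7.15 and 7.43 CPM to 12.5 and 13.1 CPM. The libraries of a time were close together and the times well apart, with a log2 fold change of 0.80 (SE 0.10, adjusted p = 0.000507, edgeR). ID1, an inhibitor of basic helix-loop-helix factors and a direct BMP target (chromosome 20, 30193086 to 30194317, plus strand), went from 18.5 and 22.7 CPM to 30.2 and 30.4 CPM, a log2 fold change of 0.53 (SE 0.09, adjusted p = 0.011, edgeR). Its relative ID2 (chromosome 2, 8822113 to 8824583, plus strand) went from 32.8 and 33.9 CPM to 45.6 and 51.2 CPM, a log2 fold change of 0.53 (SE 0.09, adjusted p = 0.00656, edgeR). SMAD7 kept its call when any of the 4 libraries was left out. ID1 kept it only without 0 min replicate 2, and had an adjusted p of 0.216 without 0 min replicate 1 (0.42), 0.0581 without 30 min replicate 1 (0.54) and 0.0936 without 30 min replicate 2 (0.53). ID2 lost it without 0 min replicate 1 (0.51, adjusted p = 0.086) and without 30 min replicate 2 (0.45, adjusted p = 0.119). ID3, at 13.4 and 13.7 CPM and then 17.3 and 16.6 CPM, and ID4, at 0.742 and 0.786 CPM and then 1.54 and 1.36 CPM, did not pass (log2 fold changes 0.32 and 0.92, adjusted p = 0.507 and 0.394, edgeR). The median of the list was 0.13.

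NFKBIA and ZFP36L2, which damp NF-kappaB signalling and mRNA levels, rose. NFKBIA encodes the inhibitor of NF-kappaB (chromosome 14, 35870716 to 35873960, minus strand) and went from 76.8 and 77.6 CPM to 102 and 101 CPM, a spread within each time far smaller than the step between them. Its log2 fold change was 0.39 (SE 0.05, adjusted p = 0.000336, edgeR). Of the 13 NF-kappaB and chemokine genes tested NFKBIA was the only one called higher. ICAM1, an adhesion molecule induced by NF-kappaB, was the only one called lower, from 161 and 169 CPM to 142 and 138 CPM (log2 fold change -0.24, SE 0.05, adjusted p = 0.0345, edgeR). The median of this list was -0.12, with 5 of 13 members above 0. An unadjusted p under 0.05 in edgeR was found for 2 higher and 6 lower members. ZFP36L2, which binds AU-rich elements of mRNAs and speeds their decay, went from 142 and 148 CPM to 194 and 183 CPM (log2 fold change 0.38, SE 0.05, adjusted p = 0.000855, edgeR) and was the only 1 of 7 mRNA decay factors called. NFKBIA and ZFP36L2 kept their calls without any 1 of the 4 libraries. ICAM1 lost it without each of them in turn, 0 min replicates 1 and 2 and 30 min replicates 1 and 2, at -0.27, -0.20, -0.26 and -0.22 (adjusted p = 0.133, 0.254, 0.0836 and 0.398).

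ARRDC3 and MYLIP, which both act on receptors of the cell surface, rose. ARRDC3 is an alpha-arrestin that directs membrane receptors to degradation (chromosome 5, 90664541 to 90679149, minus strand), and it went from 61.8 and 56.8 CPM to 87.0 and 88.9 CPM. It had the smallest adjusted p of the 46 together with C10orf10, with a log2 fold change of 0.58 (SE 0.06, adjusted p = 2.48e-05, edgeR), and kept its call in each fit without 1 library. Of the other alpha-arrestins, ARRDC4 went from 32.0 and 36.7 CPM to 38.3 and 46.2 CPM and TXNIP from 262 and 279 CPM to 298 and 299 CPM, and neither passed (adjusted p = 0.241 and 0.528, edgeR). MYLIP, the ubiquitin ligase that targets the LDL receptor for degradation (chromosome 6, 16129317 to 16148478, plus strand), went from 11.97 and 9.86 CPM to 16.3 and 18.3 CPM. Its log2 fold change was 0.69 (SE 0.10, adjusted p = 0.0019, edgeR), and without 0 min replicate 2 it was 0.53 and not called (adjusted p = 0.0837).

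AMOTL2, an angiomotin of cell junctions that restrains YAP (chromosome 3, 134074187 to 134094259, minus strand), went from 35.0 and 35.0 CPM to 49.4 and 50.3 CPM. Its log2 fold change was 0.51 (SE 0.06, adjusted p = 0.000336, edgeR), and its call held without any 1 library. PARD6B, a component of the Par polarity complex (chromosome 20, 49348081 to 49370278, plus strand), went from 20.8 and 21.5 CPM to 27.8 and 29.2 CPM (log2 fold change 0.42, SE 0.08, adjusted p = 0.0287, edgeR). PARD6B was called in none of the fits without 1 library, at 0.40 and 0.45 without 0 min replicates 1 and 2 and at 0.46 and 0.39 without 30 min replicates 1 and 2 (adjusted p = 0.283, 0.118, 0.0756 and 0.311).

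The ZNF genes, most of them DNA-binding zinc finger factors, supplied 5 of the 26 rises. Of 458 tested genes whose symbol starts with ZNF, 5 were higher and 0 lower, where 0.188% of all 13852 genes tested were higher. The median of the group was -0.02, and 210 of the 458 had a log2 fold change above 0. At an unadjusted p under 0.05 in edgeR, 19 were higher and 32 lower. Both 30 min libraries lay above both 0 min libraries in 73 and below them in 111. The group as a whole thus did not rise. ZNF367 (chromosome 9, 99148225 to 99180669, minus strand) went from 9.84 and 9.74 CPM to 15.8 and 14.0 CPM, a log2 fold change of 0.61 (SE 0.11, adjusted p = 0.011, edgeR). ZNF57 (chromosome 19, 2900896 to 2918474, plus strand) went from 11.4 and 12.3 CPM to 16.6 and 16.6 CPM, a log2 fold change of 0.48 (SE 0.09, adjusted p = 0.0158, edgeR). ZNF703, a transcriptional co-repressor, went from 29.0 and 25.4 CPM to 37.8 and 35.0 CPM, a log2 fold change of 0.44 (SE 0.08, adjusted p = 0.0116, edgeR). ZNF503 and ZNF3 changed less, by 0.32 and 0.25. In every one of these 5 genes the 0 min libraries were the lower pair, yet each lost its call when some libraries were left out. ZNF503 was not called without 0 min replicate 1 (0.30, adjusted p = 0.133) or 30 min replicate 2 (0.30, adjusted p = 0.0952), and ZNF3 without any 1 of the 4 (0.22 to 0.29). ZNF367 lost it without 0 min replicate 1 (0.62), 0 min replicate 2 (0.60) and 30 min replicate 1 (0.52), with adjusted p of 0.0877, 0.106 and 0.116. ZNF703 lost it without 0 min replicate 2 (0.33, adjusted p = 0.214) and 30 min replicate 1 (0.38, adjusted p = 0.112). ZNF57 lost it without 0 min replicate 1 (0.44), 0 min replicate 2 (0.55), 30 min replicate 1 (0.48) and 30 min replicate 2 (0.48), with adjusted p of 0.215, 0.0591, 0.0779 and 0.102.

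A further 8 rises were smaller than 0.33 on the log2 scale. They include the transcription factors KLF11 (0.32), NR2F2 (0.30), SOX9 (0.29) and FOXQ1 (0.29). SOX9, a factor of biliary and progenitor cells, went from 379.9 and 415 CPM to 486 and 489 CPM, and FOXQ1, a forkhead factor, from 112 and 112 CPM to 134 and 138 CPM. The others were TMEM106B (0.28), a lysosomal membrane protein, ZMAT3 (0.26), an RNA-binding p53 target, CIRBP (0.23), a cold-inducible RNA-binding protein, and SRSF6 (0.22), a splicing factor of the SR family. FOXQ1 had the smallest adjusted p of these 8 genes (0.00695) and SRSF6 the largest (0.0469), and none of the 8 was called in all of the 4 fits that left out 1 library. All 8 lost their call without 0 min replicate 1, and all but NR2F2, SOX9 and ZMAT3 without 0 min replicate 2. The same held for KLF11, NR2F2, SOX9, CIRBP and SRSF6 without 30 min replicate 1, and all but CIRBP without 30 min replicate 2, and over the 4 fits their log2 fold changes ran from 0.17 for CIRBP to 0.37 for KLF11.

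SPRY4, DUSP6 and IER3, which ERK induces, fell. None of the other ERK feedback genes passed the test. Of the 15 ERK feedback genes tested 3 were lower and 0 higher, with a list median of -0.07. SPRY4, a Sprouty protein that blocks the path from receptor tyrosine kinases to ERK (chromosome 5, 141689992 to 141704620, minus strand), went from 57.9 and 50.0 CPM to 32.9 and 33.2 CPM. The log2 fold change was -0.70 (SE 0.07, adjusted p = 4.69e-05, edgeR), to 0.618 of its level at 0 min. DUSP6, the cytoplasmic phosphatase of ERK (chromosome 12, 89741602 to 89746636, minus strand), went from 138 and 132 CPM to 97.5 and 94.2 CPM, a log2 fold change of -0.49 (SE 0.05, adjusted p = 4.69e-05, edgeR). IER3, a stress-inducible ERK target (chromosome 6, 30710976 to 30712327, minus strand), went from 33.0 and 31.6 CPM to 22.9 and 24.2 CPM, a log2 fold change of -0.45 (SE 0.08, adjusted p = 0.011, edgeR). SPRY4 and DUSP6 kept their calls without any 1 library, while IER3 lost its call without 0 min replicate 1 (-0.43, adjusted p = 0.133), 30 min replicate 1 (-0.41, adjusted p = 0.1) and 30 min replicate 2 (-0.49, adjusted p = 0.0555). SPRY2, a close relative of SPRY4, was at 11.6 and 12.8 CPM and then at 11.9 and 11.8 CPM (adjusted p = 0.916, edgeR). The fall of these genes stood beside the rise of FOS and EGR1, which ERK also drives.

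The FOXO targets did not fall as a whole. Of 23 tested 2 were lower and 0 higher, the list median was 0.04, and 15 had a log2 fold change above 0. With an unadjusted p under 0.05 in edgeR, 3 members were higher and 4 lower. Both 30 min libraries lay above both 0 min libraries in 6 members and below them in 6. C10orf10, also known as DEPP1 and induced by FOXO during fasting (chromosome 10, 45471709 to 45474330, minus strand), went from 88.3 and 97.6 CPM to 62.3 and 54.2 CPM. Its log2 fold change was -0.67 (SE 0.07, adjusted p = 2.48e-05, edgeR), and it kept its call without any 1 library. IGFBP1, the hepatic IGF-binding protein that insulin shuts off (chromosome 7, 45927959 to 45933267, plus strand), went from 270.1 and 290.2 CPM to 222 and 217 CPM, a log2 fold change of -0.35 (SE 0.06, adjusted p = 0.00656, edgeR), and lost its call without 0 min replicate 2 (-0.30, adjusted p = 0.0941) and without 30 min replicate 2 (-0.33, adjusted p = 0.0952). IGFBP2, another IGF-binding protein, went from 50.5 and 45.0 CPM to 39.3 and 36.7 CPM (log2 fold change -0.32, SE 0.06, adjusted p = 0.0319, edgeR), called without 0 min replicate 2 but not without 0 min replicate 1 (-0.24, adjusted p = 0.602), 30 min replicate 1 (-0.37, adjusted p = 0.0571) or 30 min replicate 2 (-0.27, adjusted p = 0.46).

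TRIB1, NR0B2 and PDP2, which act in liver metabolism, fell as well. TRIB1, a pseudokinase that lowers hepatic lipogenesis by sending transcription factors to degradation, went from 108 and 102 CPM to 75.2 and 81.9 CPM, a log2 fold change of -0.42 (SE 0.06, adjusted p = 0.000725, edgeR) that was called without any 1 library. NR0B2, the small heterodimer partner that represses bile acid synthesis (chromosome 1, 27237975 to 27240567, minus strand), went from 33.2 and 32.5 CPM to 24.9 and 21.9 CPM, a log2 fold change of -0.48 (SE 0.08, adjusted p = 0.00986, edgeR). PDP2, a phosphatase that activates pyruvate dehydrogenase, went from 45.5 and 41.2 CPM to 33.0 and 32.8 CPM, a log2 fold change of -0.39 (SE 0.07, adjusted p = 0.00962, edgeR). For each of these genes both 30 min libraries were below both 0 min libraries by more than the libraries of a time differed. NR0B2 lost its call without 0 min replicate 1 (-0.46, adjusted p = 0.105), 0 min replicate 2 (-0.50, adjusted p = 0.0571) and 30 min replicate 2 (-0.39, adjusted p = 0.202). PDP2 lost it without 0 min replicate 1 (-0.32, adjusted p = 0.185), 30 min replicate 1 (-0.39, adjusted p = 0.0581) and 30 min replicate 2 (-0.38, adjusted p = 0.0952).

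The largest fall was on a row named HNRNPU-AS1, from 15.7 and 19.1 CPM to 11.9 and 9.52 CPM, a log2 fold change of -0.71 (SE 0.12, adjusted p = 0.00656, edgeR). Despite its name the files place it on the minus strand (chromosome 1, 245003940 to 245010243), the strand of HNRNPU itself, and 3358 bp downstream of the end of that gene. Whether its reads belong to a transcript of its own or to HNRNPU read on past its end cannot be told apart here. HNRNPU, an abundant nuclear RNA-binding protein, had 867 and 860.2 CPM and then 853 and 868 CPM (log2 fold change -0.01, adjusted p = 0.986, edgeR). HNRNPU-AS1 was not called without 0 min replicate 2 (-0.54, adjusted p = 0.138) or 30 min replicate 2 (-0.57, adjusted p = 0.118). RefSeq lists the name as a synonym of HNRNPU, so that it is called antisense here by its symbol alone. Of the 336 genes tested with a symbol of that kind it was the only 1 that passed, with 0 higher. RSRP1, an arginine- and serine-rich protein of the splicing list (chromosome 1, 25568740 to 25573985, minus strand), went from 15.5 and 17.2 CPM to 10.6 and 10.8 CPM, a log2 fold change of -0.63 (SE 0.10, adjusted p = 0.00299, edgeR), and was not called without 0 min replicate 2 (-0.53, adjusted p = 0.0804). With SRSF6, which rose, it made 1 lower and 1 higher of the 21 genes for SR proteins and their CLK kinases.

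Further falls had no list in common. ZSWIM3 (chromosome 20, 44486220 to 44507769, plus strand) went from 8.68 and 7.81 CPM to 5.53 and 4.91 CPM, and its log2 fold change was -0.64 (SE 0.12, adjusted p = 0.0248, edgeR). DLK1, a membrane protein related to Notch ligands (chromosome 14, 101193202 to 101201467, plus strand), went from 128 and 103 CPM to 88.9 and 63.4 CPM, with the libraries of a time farther apart than the gap between the times, and its log2 fold change was -0.58 (SE 0.12, adjusted p = 0.0383, edgeR). C8orf4, also known as TCIM, went from 24.1 and 25.3 CPM to 16.4 and 20.1 CPM (-0.46, SE 0.09), and FILIP1L, a filamin-interacting protein (chromosome 3, 99551988 to 99833357, minus strand), from 201 and 219 CPM to 146 and 175 CPM (-0.39, SE 0.08). None of these 4 was called in all fits without 1 library. DLK1 ranged from -0.86 without 30 min replicate 1 to -0.37 without 30 min replicate 2 (adjusted p = 0.604), and was -0.43 without 0 min replicate 1 (adjusted p = 0.683). FILIP1L was -0.27 without 30 min replicate 1 (adjusted p = 0.176), -0.33 without 0 min replicate 2 (adjusted p = 0.199) and -0.45 without 0 min replicate 1 (adjusted p = 0.0614). C8orf4 was -0.31 without 30 min replicate 1 (adjusted p = 0.218), -0.41 without 0 min replicate 2 (adjusted p = 0.207) and -0.48 without 0 min replicate 1 (adjusted p = 0.132). ZSWIM3 was called in none of the 4 fits (-0.57 and -0.72 without 0 min replicates 1 and 2, -0.73 and -0.56 without 30 min replicates 1 and 2, adjusted p = 0.249, 0.0571, 0.0581 and 0.336). With DESeq2, DLK1 and FILIP1L did not pass (adjusted p = 0.521 and 0.245, DESeq2).

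ENC1, an actin-binding Kelch protein, had a fall of modest size with close libraries, from 354 and 358 CPM to 289 and 276 CPM (log2 fold change -0.33, SE 0.05, adjusted p = 0.0012, edgeR), and was called without any 1 library. The other 3 falls were E2F1 (-0.31), the cell cycle factor and the only 1 of 17 G1 genes called, HS3ST3B1 (-0.29), a heparan sulfate sulfotransferase, and RAPGEF5 (-0.27), an exchange factor of Rap GTPases. Their adjusted p-values were 0.0284, 0.0316 and 0.0221 (edgeR), and of the fits without 1 library E2F1 was called only without 30 min replicate 1, HS3ST3B1 and RAPGEF5 in none, with values of -0.40 to -0.24, -0.31 to -0.26 and -0.30 to -0.24. Over the 46 genes, 11 were called in every one of the 4 fits, EGR1, SMAD7, ARRDC3, AMOTL2, NFKBIA and ZFP36L2 among the rises and SPRY4, C10orf10, DUSP6, TRIB1 and ENC1 among the falls. Each of the 4 fits dropped some of the 46, also called genes outside them, and has 1 library at 0 or at 30 min.

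**Figure D2:**
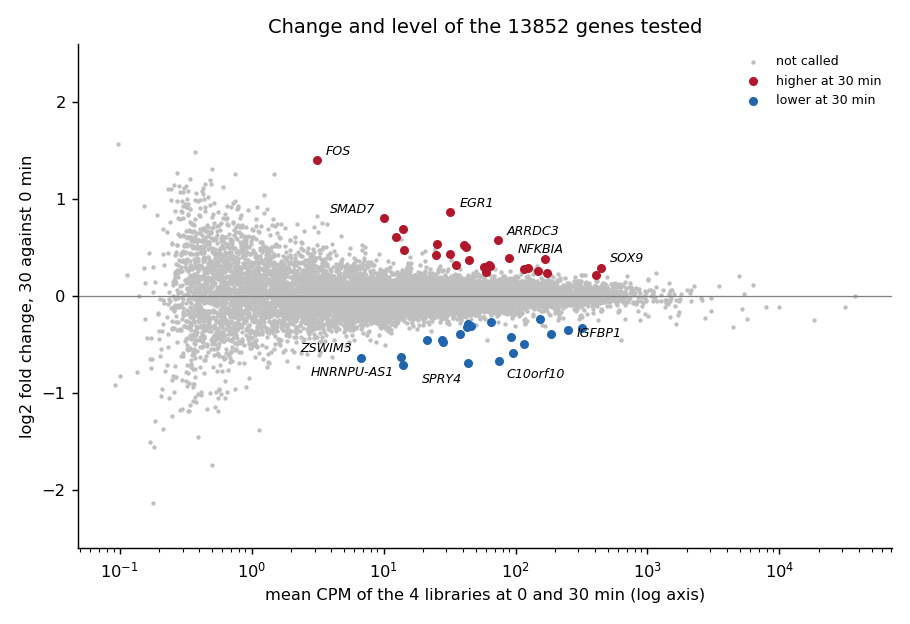
Each point is 1 of the 13852 genes tested, with its mean CPM over the 4 libraries on a log axis and its log2 fold change at 30 min on the vertical axis, red where higher, blue where lower and grey where not called, and 2 genes lie outside the axis. Called genes form the rim of the cloud between 3.12 and 442.5 CPM, and grey points of similar or larger fold change lie mostly at low CPM.

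The course of the 46 genes over the 5 times separates several shapes. At 5 min the median log2 fold change against 0 min was 0.090 for the 26 genes that rose at 30 min and -0.054 for the 20 that fell. At 10 min, when 19 of all genes tested already passed against 0 min (0.137%), the medians were 0.21 and -0.47, at 30 min 0.38 and -0.44, and at 240 min 0.35 and -0.23. These values share the 0 min libraries and the 30 min values chose the genes, so they describe and do not test. The median fall at 10 min was thus about as large as at 30 min, and the median rise was smaller at 10 min.

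Compared with 10 min directly, EGR1 was the only gene of all tested that passed at 30 min (0.00722% of genes), with a log2 fold change of 1.47 from 14.5 and 15.4 CPM to 47.5 and 34.3 CPM. Over the other genes that rose the difference from 10 min reached down to -0.07, and over the genes that fell it ran from -0.21 to 0.25. FOS, at 1.41 and 2.26 CPM at 10 min, was also late, though its difference from 10 min did not pass. ARRDC3, at 92.04 and 91.9 CPM at 10 min, and MYLIP, at 16.8 and 18.02 CPM, were by contrast already close to their 30 min levels. SPRY4 at 34.2 and 34.9 CPM, DUSP6 at 85.8 and 90.1 CPM and IER3 at 18.4 and 21.3 CPM were likewise already low at 10 min.

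**Figure D3:**
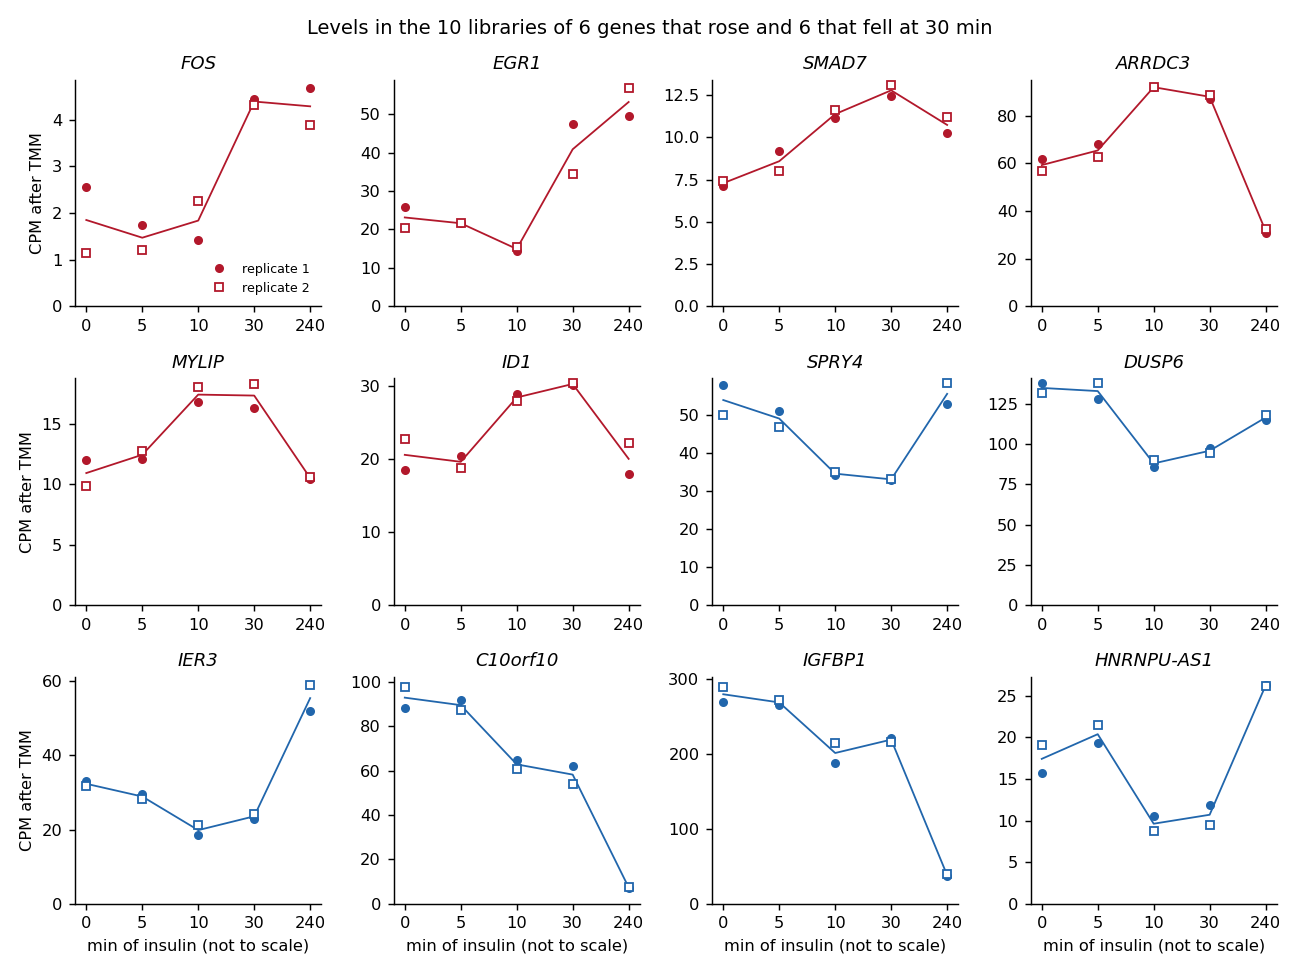
Levels of 6 genes that rose (red) and 6 that fell (blue) at 30 min, in CPM after TMM scaling, at 0, 5, 10, 30 and 240 min of insulin. Circles are replicate 1, squares replicate 2 and lines the means, and FOS and EGR1 rise after 10 min whereas SPRY4, DUSP6 and HNRNPU-AS1 are low by 10 min and higher again at 240 min.

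By 240 min many of the early changes had turned. Compared with 30 min, 19.8% of all genes tested were higher at 240 min and 18.4% lower. Of the 26 genes that rose at 30 min, 8 rose further, 9 fell back and 9 did not pass. Of the 20 that fell, 4 fell further, 11 rose again and 5 did not pass. With libraries scaled by the spike-ins, 14 of the 46 passed against 30 min in place of 32. The 30 min libraries are shared with the comparison that chose these genes, so a return towards 0 min is favoured by the choice and is given as a description.

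The genes that fell further were FOXO targets and others. C10orf10 went on to 7.28 and 7.52 CPM at 240 min (log2 fold change against 30 min -2.98, adjusted p = 4.18e-14, edgeR) and IGFBP1 to 36.7 and 39.9 CPM (-2.52, adjusted p = 4.48e-15, edgeR), while FILIP1L and RSRP1 fell by 0.36 and 0.29 on the log2 scale. ERK feedback genes went the other way. SPRY4 was back at 52.8 and 58.3 CPM, DUSP6 at 115 and 118 CPM, and IER3 rose past its starting level to 51.8 and 59.0 CPM (1.23 against 30 min, adjusted p = 8.05e-10, edgeR). PDP2, lowered at 30 min, stood at 82.4 and 77.8 CPM at 240 min, above 0 min.

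Among the rises, ARRDC3 fell to 30.9 and 32.4 CPM at 240 min, well below its level at 0 min (log2 fold change against 30 min -1.48, adjusted p = 3.00e-12, edgeR). ID1 at 17.9 and 22.1 CPM and MYLIP at 10.4 and 10.6 CPM were back near their 0 min levels. EGR1 at 49.5 and 56.9 CPM, ZNF367 at 25.9 and 24.98 CPM and PARD6B at 37.0 and 44.4 CPM rose further. FOS at 4.68 and 3.89 CPM and NFKBIA at 112 and 106 CPM did not pass the test against 30 min (adjusted p = 0.95 and 0.08, edgeR).

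FASN, SREBF1 and TIMM22, the insulin-responsive genes that the study looks at, PCK1 and G6PC of gluconeogenesis and the receptor gene INSR did not pass the test at 30 min. FASN, the fatty acid synthase, had 1176 and 988 CPM at 0 min and 1015 and 856 CPM at 30 min, with overlapping libraries and a log2 fold change of -0.21 (SE 0.08, adjusted p = 0.507, edgeR). SREBF1, the gene of SREBP-1, had 51.1 and 44.7 CPM and then 47.8 and 38.6 CPM (-0.13, adjusted p = 0.727), and TIMM22, a mitochondrial import protein, 16.1 and 15.2 CPM and then 14.4 and 14.6 CPM (-0.11, adjusted p = 0.787). The gluconeogenic genes PCK1, at 12.7 and 11.9 CPM and then 14.1 and 11.03 CPM, and G6PC, at 28.0 and 38.8 CPM and then 46.9 and 31.8 CPM, also overlapped between the times (adjusted p = 0.929 and 0.76, edgeR). INSR, the insulin receptor, was at 201 and 219 CPM and then at 217 and 205 CPM (log2 fold change 0.00, SE 0.05, adjusted p = 0.99). Against 30 min each of these moved by 240 min. On the log2 scale FASN, SREBF1 and TIMM22 changed by 0.42, 0.49 and 0.39 from 30 min to 240 min, and PCK1, G6PC and INSR by -1.38, -2.29 and -0.61.

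Whole lists without a call were the 14 lipogenic genes, the 22 cholesterol synthesis genes, the 8 gluconeogenic, 18 insulin signalling, 12 heat shock, 14 ATF4 and 13 clock genes tested. Of the lipogenic genes 13 of 14 and of the cholesterol synthesis genes 22 of 22 had a log2 fold change below 0. In 4 and 7 of them both 30 min libraries lay below both 0 min libraries, and in 0 above. The 38.3% of all genes without overlap counts both directions. Lower with an unadjusted p under 0.05 in edgeR were 7 of the 14 and 13 of the 22, against 1125 of all 13852 genes in either direction. The list medians were -0.14 and -0.15. These medians moved with single libraries. They were -0.048 and -0.053 without 0 min replicate 1 (4 genes of each list above 0). They were -0.24 and -0.27 without 0 min replicate 2 (1 and 3 genes called lower). They were -0.18 and -0.22 without 30 min replicate 1 and -0.060 and -0.093 without 30 min replicate 2. MVD, an enzyme of the mevalonate pathway, at 91.96 and 71.0 CPM and then 72.1 and 61.2 CPM (-0.27, adjusted p = 0.404, edgeR), shows the pattern, in which replicate 1 is the higher library at both times. The medians of the other lists lay between -0.05 and 0.03. The 14 hepatocyte markers had 0 calls and a median of -0.06. Libraries scaled by the spike-ins in place of TMM put the median of all genes lower by 0.13, and the medians of the immediate early, FOXO, mRNA decay, insulin signalling and clock lists then lay below 0 (-0.07, -0.09, -0.03, -0.12 and -0.12), while each of the 46 called genes kept its direction.

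**Figure D4:**
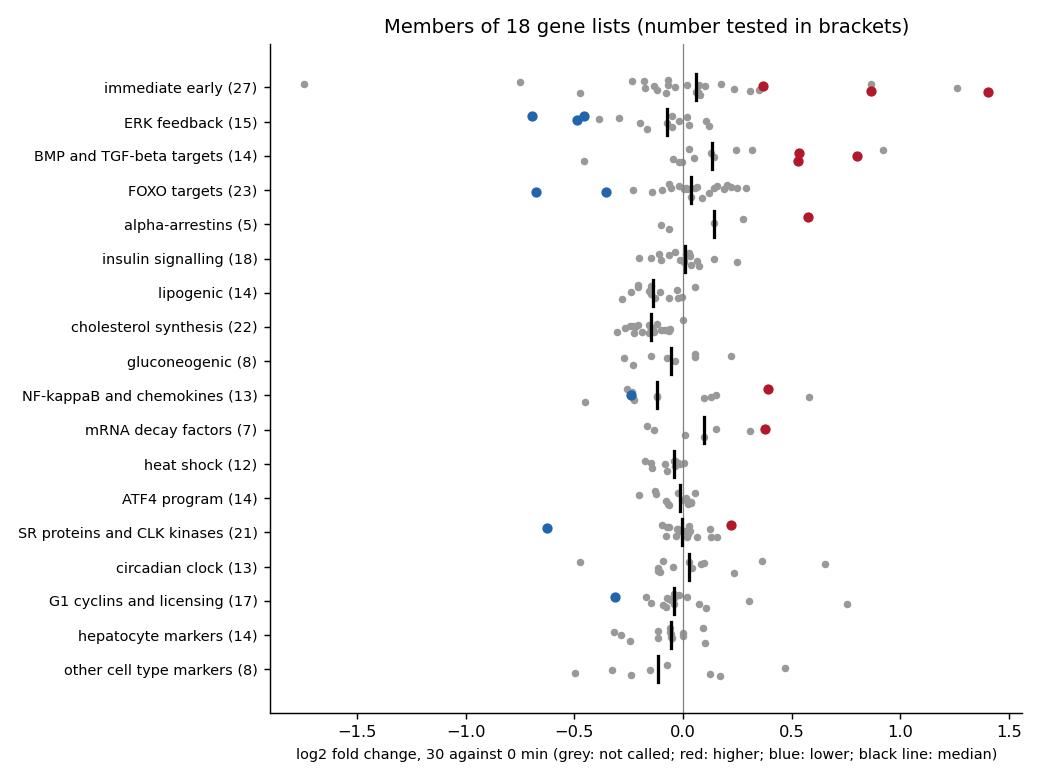
Each point is the log2 fold change at 30 min of 1 tested member of 18 gene lists, red where called higher, blue where called lower and grey where not called, and black lines are list medians. The immediate early, ERK feedback, BMP and FOXO lists hold called members, and their medians run from -0.07 to 0.13. Some grey points, such as FOSB and ID4, lie farther out than called members of their list. The cholesterol synthesis list, with a median of -0.15, has no call.

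The called genes were compared with the 1971 insulin receptor ChIP peaks, called by the authors from 1 library without a replicate. A gene counted as having a peak where one overlapped its span extended by 5 kb on both sides. Of the 26 genes that rose 3 had a peak (11.5%, 95% Wilson interval 4.0% to 29.0%), of the 20 that fell 1 did (5.0%, 0.888% to 23.6%), and of the 13852 tested 2175 did (15.7%, 15.1% to 16.3%). Peaks were thus no more frequent at changed genes than at all genes, and the intervals, which cover counting error only, span the share of all genes in either direction of change. These shares are not matched for gene span, and a longer span has more room for a peak. The median span was 9443 bp for the changed genes and 25813 bp for all genes tested. NFKBIA had 2 peaks with scores of 69 and 36, one of them over its start. KLF10 and DUSP6 had a peak with a score of 31 each, the latter centred at -1084 bp, upstream of the start, and ID1 a peak with a score of 151, above the median of 79, centred 3399 bp past its start in a region annotated as intergenic. FASN, SREBF1, TIMM22 and INSR each had a peak at their gene without a call at 30 min.

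The genes that changed were short. Their median span from start to end was 9204 bp for those that rose and 9443 bp for those that fell, against 25813 bp over all genes tested, and 50.0% of either set were under 10000 bp against 25.1% of all. They were also expressed above the middle of the range, with a median of 42.5 TPM for the rises and 54.9 TPM for the falls against 20.4 TPM over all tested, on the scale corrected for transcript length. A gene of higher count passes the test at a smaller fold change, so the level of called genes depends in part on the test itself.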

How the data were processed

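RNA-seq counts were deposited by the authors as raw counts per gene. Per the labels and the methods, single-end reads were trimmed with Trim Galore 0.6.4, aligned to hg19 with STAR 2.6.1d and counted with featureCounts 1.6.4 as reverse-stranded, and duplicates were marked. StringTie abundances in TPM and a MACS2 2.2.7.1 peak table with a score per peak were also deposited by the authors, the latter annotated by HOMER from reads aligned with BWA 0.7.17-r1188. A gene with overlapping neighbours on the same strand could gain or lose reads in counting. The 92 rows without a gene name, spike-ins, entered neither library sizes nor tests.

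The 10 RNA-seq libraries were fitted in 1 model with edgeR 4.0.16 (R 4.3.3), using TMM, filterByExpr grouped by time and quasi-likelihood F tests. A gene is called where its adjusted p (Benjamini-Hochberg over the 13852 genes tested of 26364) is under 0.05. The SE is the log2 fold change divided by the root of F, and the code was tested on simulated data. All called genes but 1, which is not reported here, are named. Full values are given for the 12 largest rises and falls averaging 1 CPM or more and for FASN, SREBF1, TIMM22, PCK1, G6PC and INSR, and from each list the called members and those with large changes may be named. JUN, MYC, ID3, SPRY2, TXNIP, LYZ and HNRNPU were named after their values were seen. The genes, lists and tests were chosen with earlier results of these data known. Alternatives used DESeq2 1.42.0 and limma 3.58.1. Tables and figures were made with Python 3.11.15, pandas 2.3.3, scipy 1.17.1 and matplotlib 3.10.9. Wilson intervals cover counting error only.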

Additional observations from a re-analysis of the deposited data

How the results depend on the processing

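All 46 genes kept their direction under each of the 17 alternatives. The alternatives reuse the libraries that chose the 46, in which the times did not overlap, so a kept direction was favoured by the choice. The number called did not hold. It was 96 (51 higher, 45 lower) with edgeR's likelihood ratio test, 160 (84 and 76) with no filter on low counts, 4 (2 and 2) with ERCC scaling, 9 (5 and 4), 10 (4 and 6) and 8 (6 and 2) with limma at a pseudocount of 1 TPM, at 0.1 TPM, and at 1 TPM after removing genes averaging under 1 TPM, and 18 to 46 (9 to 25 higher, 8 to 28 lower) when 1 replicate was left out. The cause was not tested. Of the 9, 10 and 8 genes that limma called, 2, 2 and 5 were among the 46. No gene of the 46 was called in all 17 alternatives. Fits without 1 replicate also called genes outside the 46. At least 10 counts in every library, RLE, upper quartile, only 0 and 30 min in the model, thinning and DESeq2 gave 37 to 53. With ERCC scaling only FOS and SPRY4 of the 46 were still called, and SPRY4 was the only gene of the 46 called in every fit on counts. EGR1, ARRDC3 and DUSP6 then had adjusted p-values above 0.05, with ERCC shares higher at 30 min than at 0 min.

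The replicate numbers of the titles are not said to pair libraries, and deviations of 0 and 30 min libraries of the same number correlated by 0.0857. A model with a replicate block called 59 genes (34 higher, 25 lower), which include all 46.

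Among genes not called, signs changed with ERCC scaling for PCK1 (-0.082) and INSR (-0.12), with limma for HNRNPU (0.018 in each of the 3 fits), and between fits without 1 replicate, which ran from -0.30 to 0.013 for SREBF1, -0.15 to 0.21 for PCK1, -0.11 to 0.51 for G6PC, -0.054 to 0.070 for INSR, -0.81 to 0.043 for FBP1, -0.30 to 0.030 for SLC7A11 and -0.017 to 0.0066 for HNRNPU. Shares of changed genes with a receptor peak became 3.85% for rises and 0.0% for falls (0 of 20) with peaks above the median score, when that of all genes tested went from 15.7% to 8.78%. With 2 libraries a time, the fits do not show which of a pair is unusual, and smaller changes may not be detectable at this depth.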
